A study of Drosophila melanogaster with 6 samples.

Results

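The vacuolar proton pump (V-ATPase) is the enzyme that acidifies lysosomes, endosomes and secretory vesicles. Its peripheral V1 sector splits ATP and turns a rotor, and its membrane sector, Vo, passes protons through a ring of c subunits. In insects the pump also sits on the plasma membrane of the Malpighian tubules and parts of the gut, where it powers ion and fluid transport. Flies carry several gene copies (paralogs) for many of the subunits, and some of the paralogs are known for expression in the testis. The genes described here were found by symbol, as those that begin with Vha followed by a digit, A or P in the deposited gene list. This rule gave 27 of the 17737 genes in the count files, and it leaves out the H subunit gene VhaSFD and the small VhaM genes, which are given as a separate list.

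RNA was sequenced from whole adult w1118 males after 20 days at 25°C on glucose-supplemented holidic food (GSF, with 50 g/L of added glucose) or on unmodified holidic food (HF). Holidic food is a chemically defined fly diet. There were 3 libraries per diet, each from 5 pooled whole flies, so all tissues were measured together, and fewer cells of a type cannot be told apart from less RNA per cell. All flies shared the same genotype and were raised on standard cornmeal before eclosion. The comparison asks which transcripts differ between GSF-fed and HF-fed flies.

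Library totals lay between 60378391 and 66493536 counts on GSF and between 51826530 and 60990342 counts on HF. The share of ribosomal RNA genes was 20.6% to 24.5% on GSF and 17.9% to 18.6% on HF. Levels are given in CPM, counts per 1000000 on libraries scaled by the TMM method of edgeR. The lowest count of any pump gene in a library was 46, so none was at the limit of detection. All 27 genes passed the filter of 1 CPM in 3 libraries, as did 13373 genes in all. Nothing in the labels says that the libraries of a diet came from separate cultures, so p-values measure the spread between these libraries.

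No pump subunit gene differed between the diets past the threshold of the study, a p under 0.01 with a Benjamini-Hochberg adjusted p (FDR) under 0.05. Unless another fit is named, each FDR and each standard error (SE) comes from edgeR's quasi-likelihood fit over all genes, with diet alone. edgeR's quasi-likelihood test called 0 of the 27 genes, against 5.14% of all genes tested (2.0% higher and 3.14% lower in GSF-fed flies). The paper reports more genes past this threshold in each direction, so these shares belong to the fit used here. At an unadjusted p under 0.05 the same test again had 0 of the 27, where 19.7% of all genes lay. DESeq2 and edgeR's likelihood ratio test also called 0, against 1428 and 1048 of the 13373 genes tested. At an unadjusted p under 0.05 they had 1 pump gene (Vha26) and 0 pump genes, and all genes were not counted there. A fit blocked on the replicate number called 0 genes, against 13.3% of all genes, and in it Vha14-1 and Vha26 had an unadjusted p under 0.05, where 28.3% of all genes lay.

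The differences themselves were small. The log2 fold changes (GSF over HF) of the 27 genes ran from -0.16 (Vha36-2) to 0.14 (Vha26), with a median of -0.04, where the median of all genes tested was 0.01. Of all genes tested, 64.7% lay within the same distance of 0, and 21 of the 27 pump genes lay closer to 0 than the median distance of all genes, 0.11. There were 8 genes above 0 and 19 below it, where 6990 of the 13373 genes tested lay above 0 and 6383 below. Single libraries moved the ends of this range, and Vha36-2 was at -0.27 without HF replicate 2 and at -0.06 without HF replicate 3. Without GSF replicate 2 the 27 genes ran from -0.36 (Vha100-4) to 0.28 (Vha16-2). Libraries of the diets did not overlap in 2 pump genes that were higher in GSF-fed flies (12.3% of all genes) and in 3 that were lower (12.9% of all genes).

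**Figure D1:**
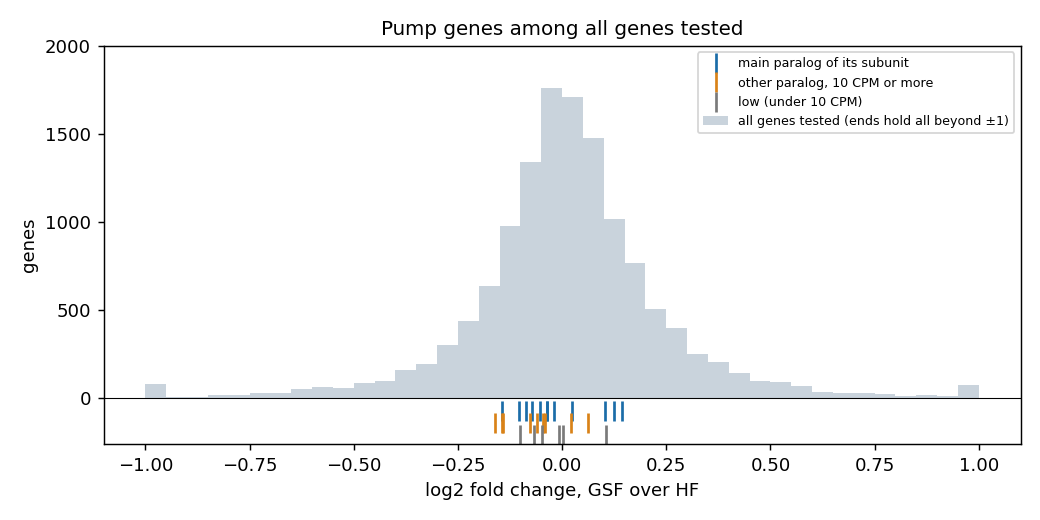
Grey bars count all genes tested by log2 fold change (GSF over HF, with the end bars holding all genes beyond them), and coloured ticks under the axis mark the 27 pump genes in 3 tiers. All ticks lie between -0.16 and 0.14.

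The genes fell into 3 tiers by their level over all 6 libraries. In each of the 12 subunits, the paralog with the highest CPM per kb of exon is called the main paralog here, and these averaged between 80.7 and 1065 CPM. A further 9 paralogs averaged at least 10 CPM (between 11.2 and 164 CPM), and 6 stayed below 10 CPM (between 1.08 and 4.82 CPM). The cutoff of 10 CPM ran between Vha14-2, at 11.2 CPM on GSF and 11.1 CPM on HF, and Vha16-3, at 4.81 CPM on GSF and 4.83 CPM on HF. A low level did not mark all testis paralogs, since Vha68-3, Vha100-3 and Vha36-2, which are known as testis genes, were above it.

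**Figure D2:**
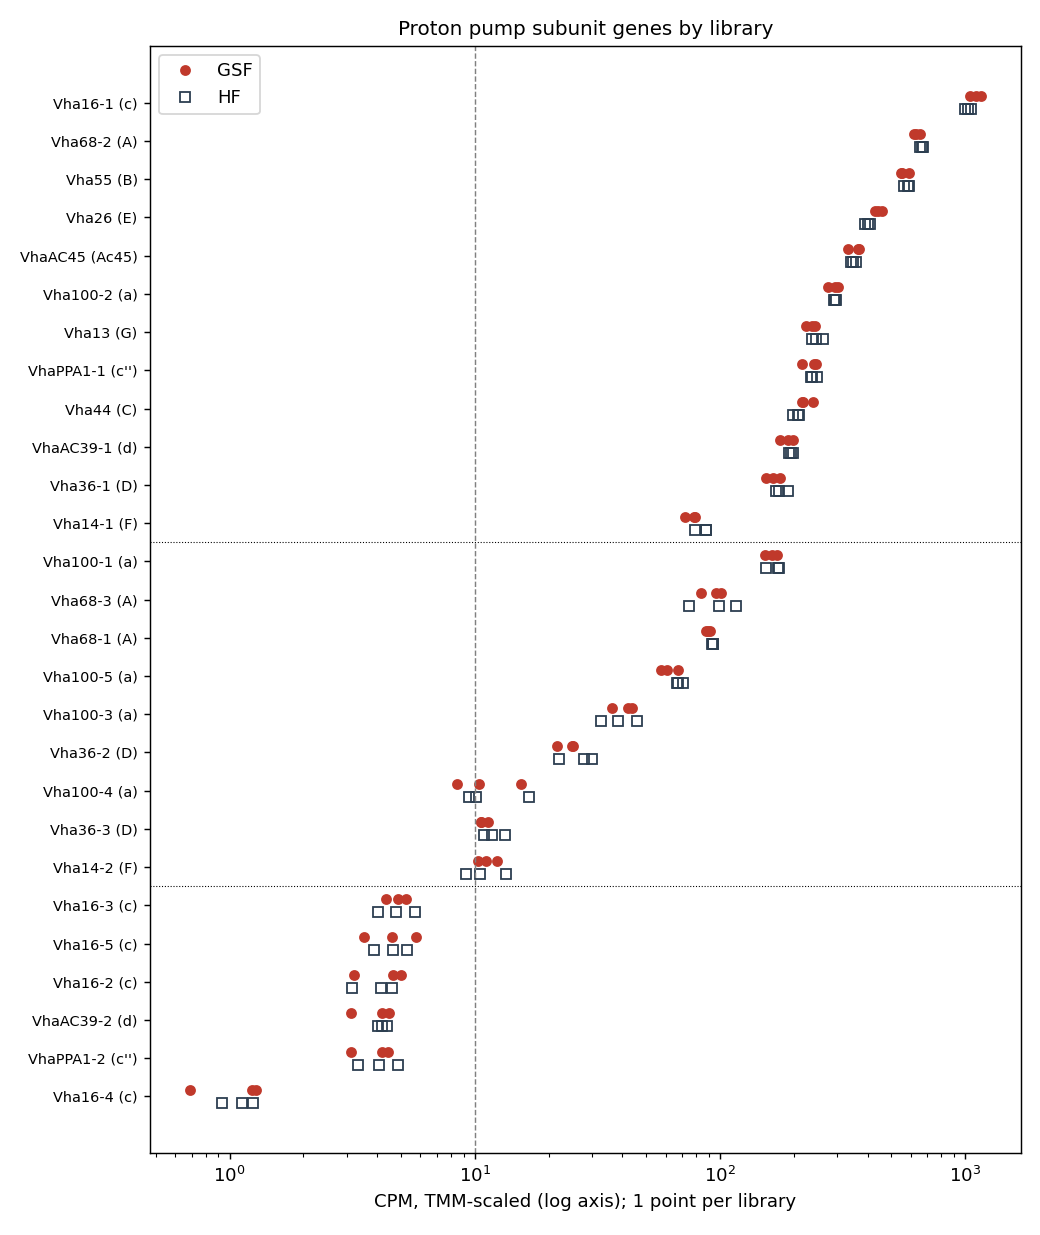
CPM of each pump gene on a log axis, with 1 point per library, GSF (filled circles) above HF (open squares), and dotted lines between the main paralogs, the other paralogs at 10 CPM or more and the low paralogs. The points of the diets lie on each other in most rows, and the main paralogs run from Vha16-1 down to Vha14-1.

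The catalytic head of V1 alternates A and B subunits. The main A gene Vha68-2 (FBgn0263598, chromosome 2L of BDGP6.54, 12974322 to 12978607) had 629, 651 and 616 CPM in the GSF libraries, against 671, 654 and 668 CPM in the HF libraries. All 3 GSF libraries lay below all 3 HF libraries, by less than the test could call (log2 fold change -0.07, SE 0.06, FDR 0.629). Vha55 (FBgn0005671, chromosome 3R, 12623762 to 12627829), the only B gene among the members, had 554, 589.9 and 547 CPM on GSF, against 582, 563 and 587 CPM on HF. Its libraries overlapped, with a log2 fold change of -0.04 (SE 0.07).

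The stalks of V1 are built from the E and G subunits, which tie the head to the membrane sector, and from D and F, which form the central rotor shaft. The E gene Vha26 (FBgn0283535, chromosome 3R, 5591763 to 5595356) had 441, 457 and 428 CPM on GSF, against 391.5, 401 and 408 CPM on HF. The 3 GSF libraries were all above the 3 HF libraries, and Vha26 had the smallest FDR of the 27 genes (log2 fold change 0.14, SE 0.06, FDR 0.271). With the replicate block its FDR was 0.171. The G gene Vha13 had 243, 237 and 223 CPM on GSF, against 263, 247 and 237 CPM on HF, and its libraries overlapped (log2 fold change -0.09, SE 0.07).

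The D gene Vha36-1 had 176, 165 and 154 CPM on GSF, against 189, 174 and 169 CPM on HF, with overlapping libraries (log2 fold change -0.10, SE 0.08). The F gene Vha14-1 (FBgn0262512, chromosome 2R, 15679426 to 15680084) had 79.4, 78.6 and 72.2 CPM on GSF, against 87.3, 87.5 and 79.4 CPM on HF. GSF replicate 1 and HF replicate 3 were level at the precision given, and the libraries stood apart by that margin alone. Its log2 fold change was -0.14 (SE 0.07, FDR 0.33, and 0.0984 with the replicate block). The C gene Vha44, whose product controls the docking of V1 on Vo, had 217, 239 and 217 CPM on GSF, against 199, 209 and 210.1 CPM on HF. All GSF libraries lay above all HF libraries, at a log2 fold change of 0.12 (SE 0.07, FDR 0.398), and 148 bp of its exons overlap Hmgs on the other strand.

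In Vo, the proton-carrying c ring is encoded mainly by Vha16-1 (FBgn0262736, chromosome 2R, 6625242 to 6633090), the most abundant pump transcript. It had 1103, 1159 and 1048 CPM on GSF, against 997, 1059 and 1024 CPM on HF. The ranges met between GSF replicate 3 and HF replicate 2, and the log2 fold change was 0.10 (SE 0.07, FDR 0.497). The c'' gene VhaPPA1-1 had 242, 246 and 216 CPM on GSF, against 249, 236 and 236 CPM on HF. VhaAC39-1, which encodes the d subunit at the top of the ring, had 189.5, 198 and 176 CPM on GSF, against 198, 195 and 191 CPM on HF. In both genes GSF replicate 3 was the lowest of the 6 libraries and the diets overlapped. The same library was the lowest in 10 of the 21 pump genes at 10 CPM or more. How often it was the lowest among all genes tested was not counted. It also had the highest share of ribosomal RNA genes, 24.5%. Without GSF replicate 3 the median log2 fold change of these 21 genes was -0.015, against -0.045 with all libraries. The part of this library in the differences was not tested.

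The a subunit of Vo forms the proton channel at the side of the ring, and its paralogs place the pump in different membranes. The main a gene Vha100-2 had 275, 304 and 294 CPM on GSF, against 295, 297 and 292 CPM on HF. Its GSF libraries lay on both sides of the HF libraries (log2 fold change -0.02, SE 0.07). VhaAC45, for an accessory protein of the sector, had 366, 369.6 and 332 CPM on GSF, against 359.8, 348 and 343 CPM on HF, likewise with overlap (log2 fold change 0.02, SE 0.07).

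For all 12 main paralogs the 95% interval of the log2 fold change lay within -0.31 and 0.29, which is between 0.807-fold and 1.22-fold. Counts of these genes were between 4276 and 77371 per library, and the highest library exceeded the lowest by between 1.08-fold and 1.23-fold. The V1 genes had a median log2 fold change of -0.07 over 12 genes, and the Vo genes a median of -0.04 over 14 genes.

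**Figure D3:**
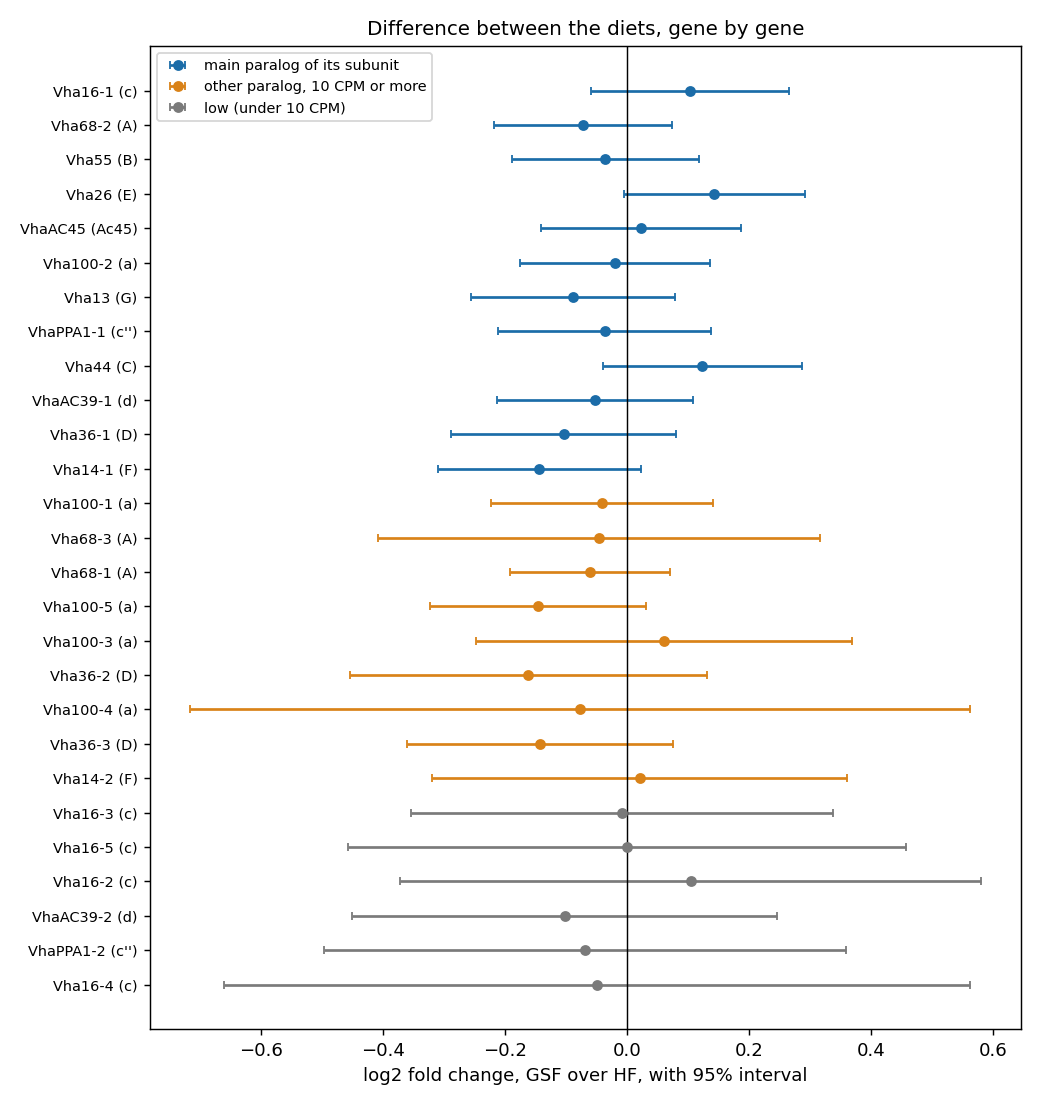
Log2 fold change (GSF over HF) of each pump gene with its 95% interval from edgeR's quasi-likelihood fit, coloured by tier. Every interval crosses 0, and those of the main paralogs stay within -0.31 and 0.29, while the intervals of the low paralogs reach from -0.66 to 0.58.

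The main paralogs at both ends of the differences also differed in exon length, taken as the union of all annotated exons. Vha14-1, Vha36-1 and Vha13, with the 3 lowest log2 fold changes, have 659, 1064 and 943 bp of exon. Vha26, Vha44 and Vha16-1, with the 3 highest, have 2926, 4023 and 3077 bp. Vha68-2, Vha55 and Vha100-2, with 2759, 2786 and 3222 bp, had log2 fold changes of -0.07, -0.04 and -0.02. The shorter VhaPPA1-1, VhaAC39-1 and VhaAC45, with 1352, 1792 and 2013 bp, had -0.04, -0.05 and 0.02, so the order by length was not strict. After the smooth trend of each library on exon length was removed, Vha44 was at 0.06, Vha16-1 at 0.07 and Vha26 at 0.12, while Vha14-1 was at -0.17, Vha36-1 at -0.09 and Vha13 at -0.08. This pattern was noticed after the values were seen, and the part of exon length in it was not tested. With the length trend removed and the replicate block together, Vha14-1 came closest to the threshold, with an FDR of 0.0534, and none of the 27 genes passed.

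Levels of different subunits were compared per kb of exon, summed over the paralogs of a subunit. The c subunit had the highest summed level, 382 ± 14.2 CPM per kb on GSF and 356 ± 8.19 CPM per kb on HF (SD, n = 3 each). It was followed by the A subunit, with 301 ± 2.91 CPM per kb on GSF and 315 ± 11.4 CPM per kb on HF. Next came G with 249 ± 10.9 CPM per kb on GSF and 264 ± 13.8 CPM per kb on HF, and B with 202 ± 8.30 CPM per kb on GSF and 207 ± 4.59 CPM per kb on HF. The means of D, c'', a and Ac45 over all 6 libraries lay between 175 and 189 CPM per kb, and their order was not tested. On GSF a and Ac45 were close, at 179 ± 5.53 and 177 ± 10.2 CPM per kb. On HF they stood further apart, at 183 ± 1.01 and 174 ± 4.28 CPM per kb. E, F and d followed with 144, 129 and 110.1 CPM per kb. The C subunit was lowest with 55.7 ± 3.13 CPM per kb on GSF and 51.2 ± 1.56 CPM per kb on HF. Exon length here is the union of all annotated exons, so genes with long alternative exons read low on this scale.

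**Figure D4:**
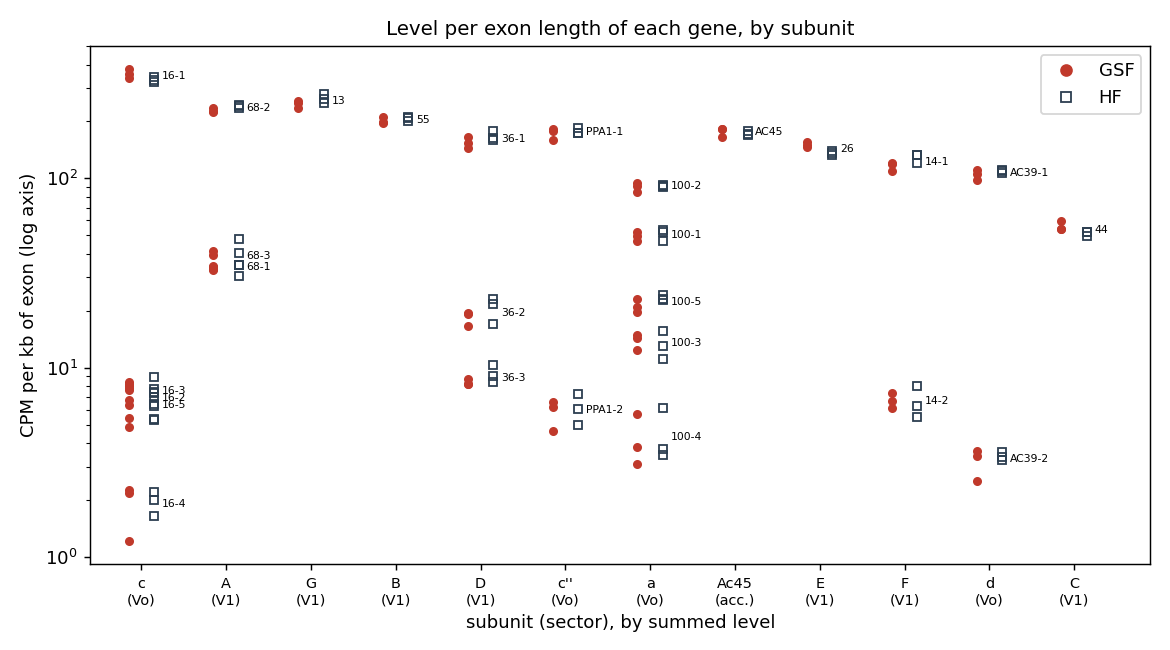
CPM per kb of exon (log axis) of every paralog by subunit, ordered by the summed level of the subunit, with GSF libraries (filled circles) left of HF libraries (open squares). In the c, F, c'' and d subunits the main paralog stands more than 10 times above the others, while the a subunit is spread over several paralogs.

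How far a single paralog carried its subunit differed from subunit to subunit. The main paralog held between 92.8% and 95.4% of the level per kb for c, between 96.0% and 97.5% for c'', between 96.5% and 97.8% for d and between 93.7% and 96.0% for F, over the 6 libraries. For D the share of Vha36-1 was between 83.1% and 86.5%, and for A the share of Vha68-2 was between 74.6% and 78.4%. For the a subunit, Vha100-2 held only between 48.7% and 51.8%. The a subunit has 5 genes among the members, as has c.

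The paralogs were next set against the main gene of their subunit, to see whether the choice of paralog differed between the diets. Over 15 such ratios, the log2 ratio differed between the diets by -0.19 (Vha16-4 to Vha16-1) to 0.18 (Vha14-2 to Vha14-1). Vha68-1 had a log2 ratio to Vha68-2 of -2.82 ± 0.06 on GSF and -2.83 ± 0.02 on HF (SD, n = 3 each), a difference of 0.01 with p = 0.8 from an exact permutation test (two-sided). Vha100-1, known for its role in neurons, had a log2 ratio to Vha100-2 of -0.84 ± 0.09 on GSF and -0.82 ± 0.09 on HF, with p = 0.7 from the same exact test. The smallest p of the 15 ratios was 0.4, with adjusted p-values between 0.964 and 1, and 3 libraries against 3 cannot give a p below 0.1. With the libraries paired by replicate number, which was added after the values were seen, 3 of the 15 ratios had 1 sign in all 3 pairs. Vha14-2 to Vha14-1 was higher on GSF by 0.21, 0.32 and 0.01, and Vha16-3 to Vha16-1 and Vha100-1 to Vha100-2 were lower in each pair. These 3 ratios had p = 0.25 in an exact sign-flip permutation test (two-sided), the smallest p that 3 pairs can give.

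Of the 9 other paralogs at 10 CPM or more, Vha100-1 was the most abundant, with 162, 171 and 153 CPM on GSF, against 175, 172 and 154 CPM on HF. As neuronal markers read beside it, the sum of elav, nSyb, Syt1, brp and Syx1A lay between 335 and 397 CPM on GSF, against between 301 and 325 CPM on HF. Of these 5 markers, 1 (Syx1A) was called higher in GSF-fed flies, against 2.0% of all genes. With the replicate block 3 were (nSyb, Syt1 and Syx1A), where 13.3% of all genes were called in either direction. The neuronal sum was separated between the diets and Vha100-1 was not, and the part of neuronal RNA in its level was not tested. Vha68-1 (FBgn0265262, chromosome 2L, 13000770 to 13004107) varied least of all 27 genes, with 91.1, 88.0 and 89.0 CPM on GSF, against 93.3, 93.3 and 92.9 CPM on HF. All GSF libraries lay below all HF libraries, at a log2 fold change of -0.06 (SE 0.06, FDR 0.664). Vha100-5, a further a subunit gene, had 67.3, 60.7 and 57.5 CPM on GSF, against 67.4, 70.9 and 66.8 CPM on HF. It overlapped between the diets only through GSF replicate 1 (log2 fold change -0.14, SE 0.08), and 527 bp of its exons lie opposite the antisense gene asRNA:CR44144.

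Vha36-3, a further D paralog, had 10.6, 11.3 and 10.6 CPM on GSF, against 13.3, 10.9 and 11.8 CPM on HF, with overlapping libraries (log2 fold change -0.14, SE 0.09).

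Vha100-4, known for the acid-secreting copper cells of the midgut, was the most uneven gene between libraries. This gene had 8.44, 15.5 and 10.4 CPM on GSF, against 9.46, 10.1 and 16.6 CPM on HF. GSF replicate 2 and HF replicate 3 were high and the other 4 libraries were low, so the diets overlapped fully (log2 fold change -0.08, SE 0.28). Its log2 fold change was -0.36 without GSF replicate 2 and 0.23 without HF replicate 3. The copper cell gene lab had 1.97, 2.25 and 2.62 CPM on GSF, against 1.83, 1.85 and 2.20 CPM on HF, with its highest levels in GSF replicates 3 and 2.

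The tubules and the gut are tissues rich in the pump, and their markers were read beside it. The sum of 5 Malpighian tubule markers lay between 330.5 and 369 CPM on GSF, against between 309 and 397 CPM on HF. Of the 5, 1 (CG3285) was called lower in GSF-fed flies, against 3.14% of all genes. The 6 enterocyte markers went both ways, with a median log2 fold change of 0.35. Myo31DF, mesh, Ssk and Tsp2A had log2 fold changes of 0.28, 0.52, 0.50 and 0.43, and the trypsin genes alphaTry and betaTry had -0.61 and -0.98. The paper counts mesh and Ssk among cell junction genes, a class it reports as raised on GSF. How far these 6 genes measure enterocyte content was not tested. Of the 6, mesh passed the threshold as higher, where 2.0% of all genes did. With the replicate block 4 passed as higher and 1 (alphaTry) as lower, where 13.3% of all genes passed in either direction. Their summed level, which includes the trypsin genes, lay between 1949 and 2466 CPM on GSF, against between 2400 and 3120 CPM on HF. The part of these tissues in the pump gene levels was not tested.

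Paralogs known from the testis, with several others, followed another pattern, which was seen after the values were examined. Vha68-3 had 96.7, 84.0 and 100.5 CPM on GSF, against 98.8, 74.7 and 117 CPM on HF. Replicate 2 was the lowest library on both diets, at 0.852 times the mean of the other replicates on GSF and 0.693 times on HF. Vha100-3 had 42.1, 36.2 and 43.7 CPM on GSF, against 38.3, 32.7 and 46.0 CPM on HF, with replicate 2 again lowest on both. Vha36-2, a D paralog, had 24.9, 21.6 and 25.1 CPM on GSF, against 28.0, 22.0 and 30.0 CPM on HF, and Vha14-2 had 11.1, 10.3 and 12.3 CPM on GSF, against 10.5, 9.20 and 13.5 CPM on HF. In both, replicate 2 was the lowest on each diet.

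The low tier held 4 of the c subunit genes with the second genes for c'' and d. Vha16-3 had 4.87, 4.33 and 5.24 CPM on GSF, against 4.79, 4.01 and 5.69 CPM on HF. Vha16-2 had 4.99, 3.21 and 4.63 CPM on GSF, against 4.16, 3.15 and 4.60 CPM on HF, and 503 bp of its 595 bp of exon lie opposite the antisense gene asRNA:CR46049. In both genes replicate 2 was lowest on each diet. Vha16-5 had 4.58, 3.53 and 5.78 CPM on GSF, against 4.65, 3.89 and 5.31 CPM on HF, and VhaPPA1-2 had 4.19, 3.12 and 4.41 CPM on GSF, against 4.07, 3.34 and 4.85 CPM on HF. Replicate 2 was the lowest on both diets in these genes and in Vha16-4. The last of these, the lowest pump gene, had 1.28, 0.69 and 1.23 CPM on GSF, against 1.25, 0.93 and 1.13 CPM on HF. VhaAC39-2 had 4.19, 3.12 and 4.46 CPM on GSF, against 4.03, 4.17 and 4.40 CPM on HF, so that its replicate 2 was lowest on GSF only. The log2 fold changes of the 6 low genes lay between -0.10 and 0.10, with standard errors between 0.15 and 0.26, and their 95% intervals reached from 0.633-fold to 1.50-fold.

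In all, replicate 2 was the lowest library on both diets in 9 of the 15 other paralogs and in 0 of the 12 main paralogs. The share of all genes tested with this pattern was not counted, so these counts have no background to be read against. For the main paralogs, replicate 2 lay between 0.998 and 1.10 times the mean of the other replicates on GSF and between 0.963 and 1.05 times on HF. The summed level of 10 testis marker genes (betaTub85D, dj, ocn, soti and others) was 1805, 1562 and 1835 CPM on GSF, against 1798, 1387 and 1957 CPM on HF. Replicate 2 of these markers was at 0.858 times the other replicates on GSF and 0.739 times on HF. In edgeR's quasi-likelihood test 0 of the 10 markers passed the threshold, against 5.14% of all genes. At an unadjusted p under 0.05 there were also 0, against 19.7% of all genes. With the replicate block 1 was called, against 13.3% of all genes. In that fit 4 had an unadjusted p under 0.05 (ocn, dj and janB higher, CG10063 lower), against 28.3% of all genes. The part of testis RNA in the levels of these paralogs was not tested.

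**Figure D5:**
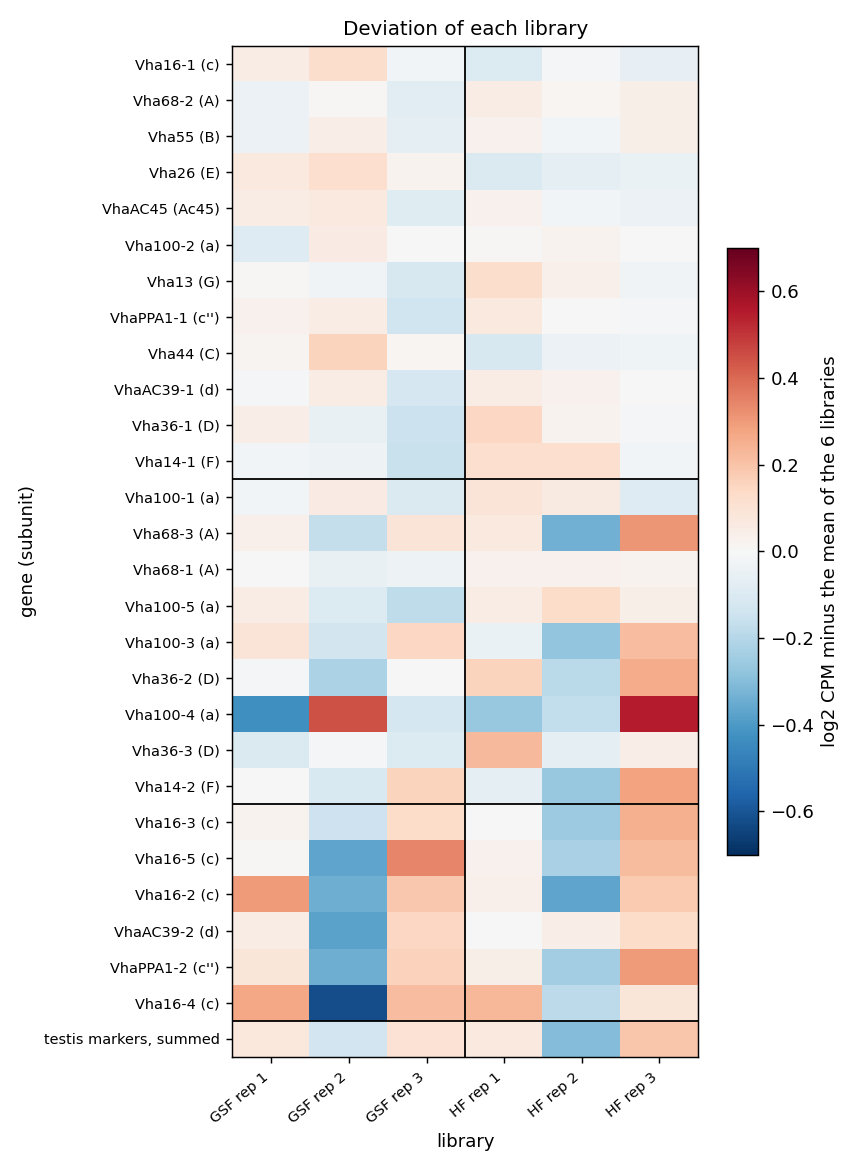
Log2 CPM of each pump gene in each library minus its mean over the 6 libraries (red above, blue below), GSF libraries left of HF libraries, with the summed testis markers in the last row. Replicate 2 is pale in the rows of the main paralogs and blue on both diets in most of the lower rows, as in the row of the markers.

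Several paralogs are neighbours in the genome. Vha68-3 lies 178 bp from Vha68-2 on the same strand, and Vha68-1 lies 19476 bp further on the other strand. Vha100-4 lies 517 bp from Vha100-2 (chromosome 3R, 18390323 to 18399169), VhaPPA1-2 lies 2052 bp from VhaPPA1-1, and Vha16-3 lies 985 bp from Vha16-2, each pair on the same strand. The neighbours Vha68-2 and Vha68-3 differed in their library pattern, with Vha68-2 between 616 and 671 CPM in all libraries and Vha68-3 lowest in replicate 2 of both diets. Of the 6 low genes, 4 have a single exon block, against 2 of the 12 main paralogs and 1 of the 9 others. The members lie on chromosome arms 2L (5 genes), 2R (8), 3L (2), 3R (10) and the X chromosome (2).

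Other genes of the pump and its setting were read from 5 lists. Of their 44 genes tested, 0 passed the threshold, where 5.14% of all genes did, and 9 (20.5%) had an unadjusted p under 0.05, where 19.7% of all genes lay. With the replicate block 5 (11.4%) passed, against 13.3% of all genes, so calls with the block were no more frequent in the lists than among all genes. Of 6 pump genes whose symbols the rule leaves out, 0 passed the threshold with edgeR's quasi-likelihood test, 0 had an unadjusted p under 0.05 and their median log2 fold change was 0.05. The H subunit gene VhaSFD had 268, 279 and 262 CPM on GSF, against 273, 259.6 and 270.4 CPM on HF, with overlapping libraries (log2 fold change 0.01, SE 0.06). VhaM8.9, for the accessory receptor protein of the pump, differed by -0.06 and the e subunit gene VhaM9.7-b by 0.09. VhaAC45RP, listed under an older symbol in the deposited files, differed by -0.08.

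Among 6 genes of pump assembly and control, 0 passed and 1 had an unadjusted p under 0.05. That gene was Mitf, which encodes the transcription factor known to activate pump and lysosomal genes in flies. Mitf had 52.5, 60.0 and 53.2 CPM on GSF, against 45.8, 51.5 and 46.7 CPM on HF. The lowest GSF library lay just above the highest HF library (log2 fold change 0.20, SE 0.08, FDR 0.224). With the replicate block Mitf passed the threshold (FDR 0.0371). Rbcn-3A and Rbcn-3B, whose products help V1 and Vo to assemble, differed by 0.05 and -0.02.

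Of 10 genes for ion exchangers and chloride channels, which work beside the pump in acidified vesicles and transporting epithelia, 0 passed and 2 had an unadjusted p under 0.05. The sodium-proton exchanger gene Nhe3 had 72.4, 79.3 and 73.5 CPM on GSF, against 62.4, 67.1 and 63.0 CPM on HF, without overlap (log2 fold change 0.23, SE 0.07, FDR 0.107, and 0.0265 with the replicate block). The potassium-chloride cotransporter gene kcc, at 0.21 (SE 0.07, FDR 0.136), also passed only with the block (FDR 0.0439). The median of this list was 0.02.

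Of 13 genes for lysosomal membrane proteins and proteases, 0 passed and 4 had an unadjusted p under 0.05, 2 of them higher (Lamp1 and Npc1a) and 2 lower (CtsB1 and CtsF). The list went both ways, with 6 genes above 0 and 7 below it, between -0.23 and 0.41. The lysosomal membrane gene Lamp1 had 350.3, 368 and 329 CPM on GSF, against 309.5, 315 and 299 CPM on HF, without overlap (log2 fold change 0.18, SE 0.07, FDR 0.205). The cathepsin B gene CtsB1 had 364, 354 and 307 CPM on GSF, against 408, 426 and 368 CPM on HF (log2 fold change -0.23, SE 0.09, FDR 0.224). With the replicate block CtsB1 passed (FDR 0.0484), as did the cathepsin-like gene Swim at 0.44 (FDR 0.0270). Of 9 genes that dock mTORC1, the growth-control kinase complex, at the lysosome or control it there, 0 passed with or without the block. In the main fit 2 (Lamtor4 and Lamtor5) had an unadjusted p under 0.05, against 19.7% of all genes. With the block 3 did, against 28.3% of all genes. The log2 fold changes were above 0 in 2 genes and below it in 7, with a median of -0.12.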

How the data were processed

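The 6 libraries of whole male flies were sequenced as read pairs. The authors trimmed adaptors with Trimmomatic, aligned the pairs to the BDGP6 transcriptome with HISAT2 (version 2.1.0), converted the files with SAMtools (version 1.8) and deposited raw counts per gene without normalization. The strand setting and the treatment of multi-mapping reads are not given in the sources used here, so paralogs, overlapping genes and antisense genes may share reads. The deposited comparison table holds log2 fold changes, p-values and FDR, and only its gene IDs and symbols were read.

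The statistics were run in R 4.3.3 (edgeR 4.0.16, DESeq2 1.42.0). A gene was tested if it reached 1 CPM in 3 or more libraries, which 13373 genes did. TMM scaling was followed by the two-sided quasi-likelihood test of edgeR, adjusted by Benjamini-Hochberg over the tested genes. For the SE, the absolute fold change (log2) was divided by the root of F, and 95% intervals use the t distribution of that fit. Paralog ratios had a pseudocount of 2 counts. The tests were checked on simulated counts. Coordinates and exon lengths came from the Ensembl annotation of BDGP6.54, and Vha44, which has a newer ID there, was matched by symbol.

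All pump genes are named, and list genes were to be named if they passed the threshold. The list genes named although they did not pass it were chosen after their values were seen. Members, lists and tests were chosen with earlier results of these data known, and roles come from general knowledge. Of 10 mTORC1 genes 1 and of 12 testis markers 2 matched no gene of the files.

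Deviations from the diet means correlated between libraries of the same replicate number (0.188, 0.247 and 0.476). A fit blocked on that number was therefore run beside the main fit, which has diet alone and ignores any pairing. The block rests on the counts, since no source says what a number shares. Blocked values stand beside results whose call they change. Other scalings, filters and tests, a removed exon-length trend (spline with 5 degrees of freedom) and leaving out each library were also tried.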

Additional observations from a re-analysis of the deposited data

How the results depend on the processing

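No pump gene passed the threshold in the 10 other scalings, filters, tests and designs or with any of the 6 libraries left out. The replicate block changed no call among the pump genes. In the main fit 687 of 13373 genes passed. With a library left out fewer did, from 116 of 13291 (without GSF replicate 1) to 517 of 13320 (without HF replicate 3). The absence of pump genes among so few calls says little on its own. In the 10 other settings between 637 (library size alone) and 1782 (replicate block) genes passed. Vha16-4 was not tested at 1 CPM in all 6 libraries, which left 26 pump genes. The sign of Vha16-3 turned with library size alone (0.0023) and with the replicate block (0.0017), and that of Vha16-5 with upper quartile scaling (-0.0045), the replicate block (-0.0093), the length trend removed (-0.019) and both together (-0.029). These values lie far inside their standard errors, and the cause was not tested.

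With the replicate block, 1 gene of pump assembly and control, 2 ion exchanger genes and 1 lysosomal gene passed as higher in GSF-fed flies, and 1 lysosomal gene passed as lower, which is 11.4% of the 44 list genes, against 13.3% of all genes. With the length trend removed as well, 2 lysosomal genes passed as higher and 1 ion exchanger gene as lower, where 1639 of all 13319 genes tested passed. At an unadjusted p under 0.05 in the main fit there were 1 assembly gene, 2 ion exchanger genes and 2 lysosomal genes higher. Lower were 2 lysosomal and 2 mTORC1 docking genes. Together these are 20.5% of the 44 list genes, against 19.7% of all genes.

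With single libraries left out, the median log2 fold change of the 6 low genes ran between -0.15 (without GSF replicate 3) and 0.12 (without GSF replicate 2), and was -0.10 without HF replicate 2 and 0.098 without HF replicate 3. The median of all 27 genes ran between -0.076 and -0.023. The log2 fold changes whose sign turned, with no call made, ran between -0.18 and 0.12 for Vha68-3, -0.079 and 0.19 for Vha14-2, -0.051 and 0.021 for Vha100-2, -0.091 and 0.0094 for Vha100-1, -0.034 and 0.20 for Vha100-3, and -0.36 and 0.23 for Vha100-4. Among the other c subunit genes they ran between -0.11 and 0.13 for Vha16-3, -0.023 and 0.28 for Vha16-2, -0.18 and 0.16 for Vha16-5, and -0.20 and 0.19 for Vha16-4. They ran between -0.071 and 0.032 for VhaPPA1-1, -0.18 and 0.079 for VhaPPA1-2, -0.091 and 0.0022 for VhaAC39-1, -0.19 and 0.041 for VhaAC39-2, and -0.0044 and 0.081 for VhaAC45. Counts of 46 to 344 limit what can be said of the low genes.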
